A study of Mus musculus with 16 samples.

Results

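Gene expression was compared between CD4 T cells of B10.Q/J mice taken 5 h after interferon alpha (IFNα) and the same cells after vehicle. The comparison holds 4 of the 16 arrays of the series, 2 per group, chosen by their titles and by the cell family that the labels give. All cells came from the spleens of male mice aged 7 weeks and were sorted on a FACSAria as TCRB+ CD4+ CD8-. The treated mice received 10000 units of IFNα under the skin. The vehicle pair joins 1 array from a mouse killed at 2 h and 1 from a mouse killed at 5 h, so time after injection was matched in vehicle array 2 alone. Mice of the B10.Q/J strain carry a spontaneous Tyk2 mutation, which treated and vehicle mice share, and no array with both Tyk2 and Ifnar1 intact is compared here. The other T-cell pair (B10.Q/J, same age and sex, IFNα for 2 h) and the macrophages of the peritoneal cavity of B10.Q/J mice (male, 7 weeks, vehicle or IFNα for 2 h or 5 h) are set beside it, and they enter the estimates of spread in the larger fits described below. The titles of the vehicle and 5 h macrophage arrays carry the code Sp, which the titles of the spleen T-cell arrays also carry. The 2 vehicle arrays come from mice killed at different times, so from different mice. For the treated pairs the labels do not state whether the arrays stem from different mice, and their spread may be technical. The p-values rest only on the spread within pairs, which in the vehicle pair also holds the difference in time.

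Type I interferons bind a receptor made of IFNAR1 and IFNAR2. The kinases JAK1 and TYK2, which are bound to its chains, then activate STAT proteins, which together with IRF9 make up ISGF3, the factor that binds interferon-stimulated response elements (ISRE) in promoters. Paired STAT proteins bind a second element, the gamma-activated sequence (GAS), which also lies in genes induced by other cytokines such as interleukin 6. In T cells the target genes include antiviral proteins and the brakes of the same pathway, such as the protease USP18.

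The values are log2 intensities of 1 probe set per gene, and the number of arrays limits their precision. Array medians of the deposited intensity ran from 173.57 to 179.29 over the 6 T-cell arrays. All 9 measured CD4 T-cell markers lay above the array median in each of these 6 arrays, and their mean was 11.43 to 11.63, against 5.89 to 6.10 in the B10.Q macrophages. The title of vehicle array 1 begins with the code used for B cells, but its Cd3e was 12.40, its Cd4 was 12.14 and its Cd79b was 8.19, close to the 12.46, 12.31 and 8.33 of vehicle array 2. Of 9 B-cell markers, 1 lay above the array median in each T-cell array. The mean of the 9 macrophage and monocyte markers was 6.83 to 7.04 with vehicle and 7.00 to 7.01 at 5 h, against 11.89 to 11.96 in macrophages. For the CD8, dendritic cell, neutrophil, NK-cell and erythroid or platelet lists the means at 5 h were 7.77 to 7.88, 6.93 to 6.97, 5.90, 6.27 to 6.32 and 6.59 to 6.68, against 8.05 to 8.07, 7.03 to 7.08, 5.90 to 5.93, 6.40 to 6.45 and 6.72 to 6.81 with vehicle. The B-cell list went the other way, from 6.57 and 6.63 to 6.68 and 6.78. Of the 53 markers of other cell types with a probe set, 13 were high enough to be tested in the 6 arrays and 9 in the 4 compared arrays. None of those tested was called, and the part of these cells in the results was not tested. In the 2 h pair the macrophage mean was 8.42 in array 1 and 7.49 in array 2. Lyz2, a lysozyme of myeloid cells, showed the same order, with 12.20 and 10.02 at 2 h against 7.34 and 7.67 with vehicle and 7.40 and 7.35 at 5 h. The median absolute difference between the 2 arrays of a group was 0.16 at 2 h, 0.086 with vehicle and 0.081 at 5 h. The 5 h comparison itself therefore does not use the arrays with high macrophage markers, but the 2 h pair enters the estimate of spread. A fit of the 6 T-cell arrays (the 6-array fit) had been set as the design, and a fit of the 4 compared arrays (the 4-array fit) is given beside it.

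**Figure D1:**
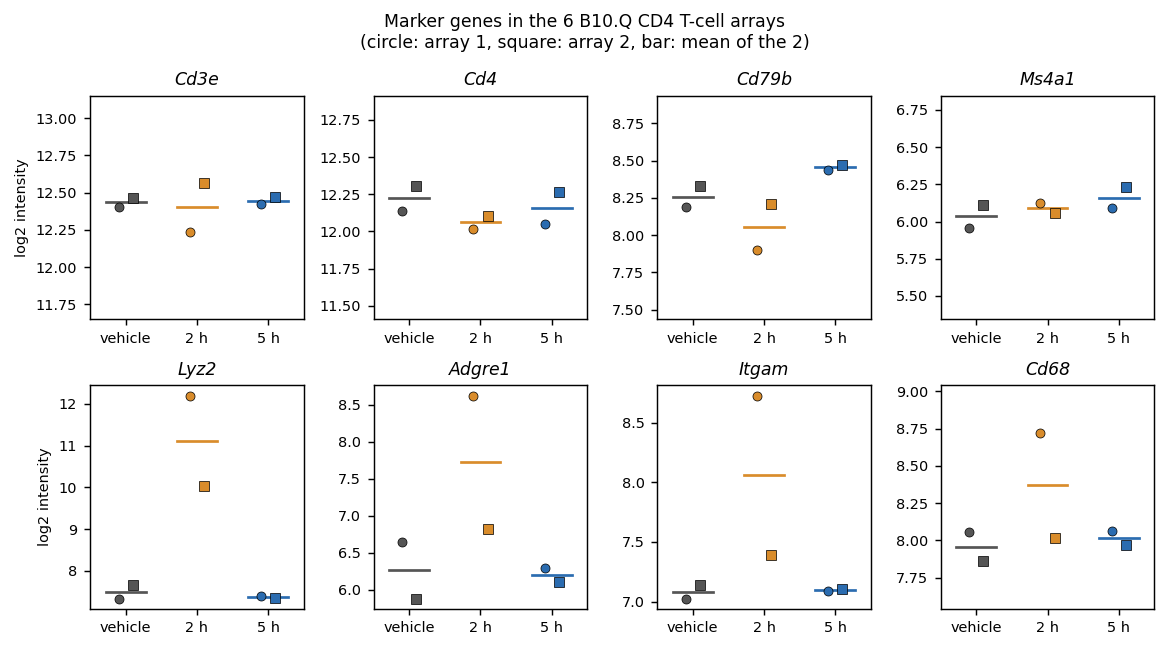
Log2 intensity (vertical axis) of 8 marker genes in the 6 T-cell arrays, by group; circles are array 1, squares array 2 and bars the mean of the 2. Lyz2 stood at 12.20 and 10.02 in the 2 h arrays and between 7.34 and 7.67 in the other 4, while Cd3e lay between 12.24 and 12.57 in all 6.

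At 5 h, 2 genes were higher than with vehicle in the 6-array fit and none was lower. The first was Rtp4, which encodes a protein known as an interferon-induced antiviral factor. The second was Neb, which encodes nebulin, a giant protein of the muscle thin filament. These 2 genes are 0.0197% of the 10164 tested, at an adjusted p under 0.05 (limma, Benjamini-Hochberg). At an unadjusted p under 0.05, 388 genes passed (3.82%), 235 of them higher and 153 lower. The 4-array fit called 63 of 10006 genes (0.63%), 57 higher (0.57%) and 6 lower (0.06%), and in it the median SE was 0.080 against 0.10 in the 6-array fit. The 6-array fit called 65 genes without 2 h array 1 and 64 without 2 h array 2. It called none when any 1 of the 4 compared arrays was left out, with a smallest adjusted p of 0.19 to 0.34. The 4-array fit called 42, 44, 79 or 76 genes without vehicle array 1, 5 h array 1, 5 h array 2 or vehicle array 2, and 39, 38, 49 and 47 of these were among the 63. In each of these fits the spread came from the 1 remaining pair alone, and the lone array was assumed to vary like it. With no filter on low values, an alternative chosen after seeing the data, the 4-array fit called 37 genes, all higher, of which 33 were among the 57. In what follows, rose and fell refer to the 4-array fit unless the 6-array fit is named, and differences are log2 values of 5 h minus vehicle with the SE of the 6-array fit unless stated.

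Rtp4 read 7.78 and 7.91 with vehicle and 9.95 and 10.03 at 5 h. Both treated arrays lay above both vehicle arrays, a difference of 2.14 ± 0.15 (SE, n = 2 arrays per group), or 4.42-fold, with an adjusted p of 0.00721 in the 6-array fit. At 2 h its arrays had stood higher still, at 11.43 and 10.95. Neb read 7.34 and 7.32 with vehicle and 8.93 and 8.77 at 5 h, a difference of 1.52 ± 0.11, or 2.87-fold, with the same adjusted p of 0.00721. Unlike Rtp4, Neb was still near vehicle at 2 h, with 7.53 and 7.30. It was also the sole gene called between 5 h and 2 h, at 1.43 ± 0.11 with an adjusted p of 0.0218 in the 6-array fit (0.00984% of the genes tested). In a fit of those 2 groups alone no gene was called between the 2 times, and the adjusted p of Neb was 0.299. Without either 5 h array no gene passed, while 27 passed without 2 h array 1 (7 higher at 5 h, 20 lower) and 1633 without 2 h array 2 (1131 and 502). Each of these 2 genes has 1 probe set, so no second one was there for comparison.

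**Figure D2:**
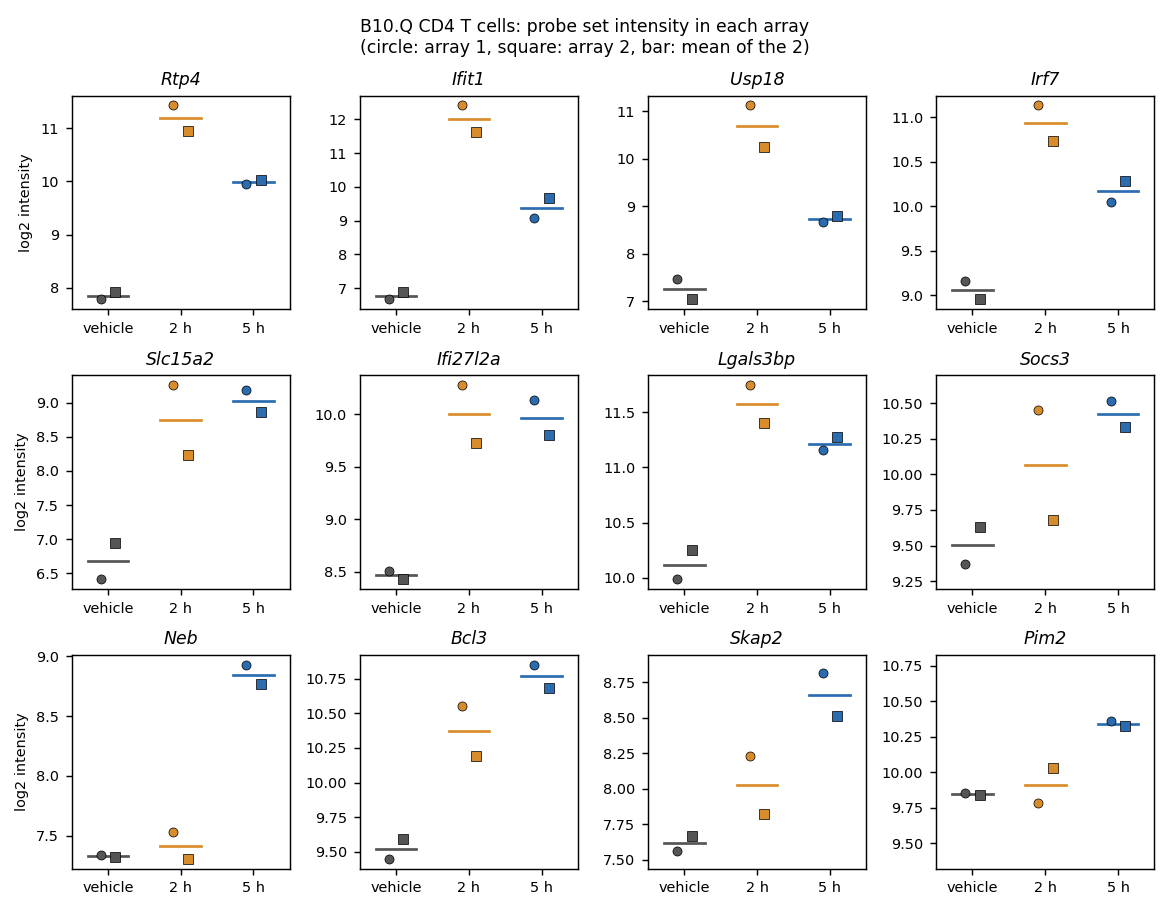
Log2 intensity (vertical axis, its range set for each gene) of 12 genes in the 6 T-cell arrays by group; circles are array 1, squares array 2 and bars the mean of the 2. Rtp4, Ifit1, Usp18, Irf7 and Lgals3bp were highest at 2 h, whereas in Neb, Bcl3, Skap2 and Pim2 both 5 h arrays lay above the other 4.

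The 57 genes that rose did so by 0.42 to 2.61, with a median of 0.74 or 1.67-fold, and 42 of them belong to 1 of the pathway lists described below. The 57 and the 6 that fell were taken from the 4-array fit, so those outside the lists were named after their values were seen. The lists too were written with earlier results of these data known, so counts of their members are descriptions and no test. Only Rtp4 and Neb of the 57 were called in the 6-array fit. Against vehicle array 2 alone, which was taken at 5 h, the median difference of the 57 was 0.75. Against vehicle array 1, taken at 2 h, it was 0.70. Both vehicle arrays entered the choice of the 57, so these medians cannot show what the unequal time after injection did. In 8 of the 57, namely Cmpk2, Eif2ak2, Ifit1, Oas2, Phf11a, Neb, Rnase6 and Slc15a2, both vehicle arrays lay below the array median, so that they entered the 4-array fit through the treated arrays alone. With no filter 6 of these 8 were still called in that fit, at adjusted p values of 0.00143 (Neb), 0.00225 (Ifit1), 0.00373 (Slc15a2), 0.00632 (Oas2), 0.00638 (Eif2ak2) and 0.00717 (Cmpk2), while Phf11a and Rnase6 were not, at 0.201 each. In these bulk samples a change in the share of cells that hold a transcript and a change in its amount per cell cannot be told apart.

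The antiviral effectors held the most risen genes. Of 51 listed genes, 39 were tested in the 6-array fit, and 38 of these were above 0, with a median of 0.50 against 0.0041 over all genes tested. In 32 of the 39 both treated arrays lay above both vehicle arrays, which held for 21.7% of all genes tested. In the 4-array fit 18 of the 34 members tested rose and none fell. Over all genes, 51.5% were above 0 in the 6-array fit, and 0.57% rose in the 4-array fit. These shares are the base for the counts of every list below. A gene that passes the filter on low values only through treated arrays has to differ, so these counts describe the lists and test nothing. Ifit1, which binds viral RNA that lacks a normal cap, read 6.67 and 6.87 with vehicle and 9.09 and 9.68 at 5 h. The 2 groups lay far apart, with a difference of 2.61 ± 0.28 and an adjusted p of 0.0575 in the 6-array fit and 2.78e-04 in the 4-array fit. Ifi27l2a, a small protein of the interferon response, read 8.51 and 8.43 with vehicle and 10.13 and 9.80 at 5 h. It rose 2.82-fold, with an adjusted p of 4.06e-04 in the 4-array fit and 0.118 in the 6-array fit. Ifitm3, which blocks the entry of enveloped viruses, lay below the lower quartile of both vehicle arrays (5.34 and 5.88) and read 7.07 and 7.49 at 5 h, so its fold is a bound of at least 1.94. It was not called, with an adjusted p of 0.904 in the 6-array fit, and was not tested in the 4-array fit. Eif2ak2, the kinase PKR that halts translation on sensing double-stranded RNA, read 7.35 and 7.42 with vehicle and 8.31 and 8.35 at 5 h. Oas2, an enzyme that makes 2-5A and so switches on RNase L, read 7.35 and 7.34 with vehicle and 8.28 and 8.29 at 5 h. The arrays of a group differed by under 0.1 in both genes, and they rose by 0.95 and 0.94 with adjusted p values of 5.51e-04 and 5.34e-04 in the 4-array fit. In the 6-array fit their adjusted p was 1.00, and their 2 h arrays lay further apart, at 9.84 and 8.81 for Eif2ak2 and 9.97 and 8.68 for Oas2. Other risen members were Xaf1, Lgals3bp, Cmpk2, Oasl2, Isg20, Oas3, Ifi27, Helz2, Pml, Adar, Oas1b, Apobec3 and Phf11a, with differences of 0.47 to 1.09.

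Sensors of viral nucleic acid rose in part. Of 16 members tested, 11 were above 0, against 51.5% of all genes, with a median of 0.18. In the 4-array fit 5 of the 15 tested rose, against 0.57% of all genes. These were Ddx60 (1.06), Dhx58 (0.94), Ifih1 (0.81), Zbp1 (0.60) and Ifi213 (0.53). Ifih1 encodes MDA5, a sensor of long double-stranded RNA, and Dhx58 encodes its relative LGP2. Ifih1 read 8.16 and 8.22 with vehicle and 9.05 and 8.96 at 5 h, groups that lay far apart. Of the PARP, TRIM and Schlafen families, 23 of 25 members tested were above 0 with a median of 0.34, and 8 rose. The largest of these differences were Slfn5 (0.93), Trim30d (0.86), Trim12c (0.78) and Trim25 (0.74), the last a ubiquitin ligase that acts on RIG-I signalling. Slfn5 read 8.89 and 8.85 with vehicle and 9.89 and 9.72 at 5 h, with no overlap. All 9 GBP and IRG GTPases tested, which act against pathogens inside vacuoles, were above 0 with a median of 0.45. Gbp3, Gm12250 and Irgm1 rose by 0.62, 0.59 and 0.57, while Gbp9 stood at 0.73 with an adjusted p of 0.0602 in the 4-array fit.

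The receptor and its kinases were near 0, whereas IRF9 rose. Ifnar1, a chain of the receptor, differed by -0.04 ± 0.09, with a 95% interval of -0.24 to 0.17. Ifnar2 differed by 0.03 ± 0.10 and Tyk2 by 0.01 ± 0.16, with intervals of -0.21 to 0.27 and -0.38 to 0.39. An array measures the amount of a transcript, so the Tyk2 value says nothing of the strain's mutation. Irf9 read 10.15 and 10.06 with vehicle and 10.87 and 10.98 at 5 h, a rise of 0.82 ± 0.09 with an adjusted p of 0.00158 in the 4-array fit and 0.0575 in the 6-array fit. Its 2 h arrays, 11.32 and 11.29, lay above both. Stat2 read 9.08 and 9.06 with vehicle and 9.51 and 9.45 at 5 h. Its groups did not overlap, but at 0.41 it was not called, with an adjusted p of 0.0520 in the 4-array fit. Stat3 stood at 0.40, with an adjusted p of 0.0942. Over the 14 receptors, kinases and STAT genes tested the median was 0.04 and 1 rose. Of the interferon regulatory factors 2 of 7 rose, Irf9 and Irf7, the latter a factor that amplifies interferon production. Irf7 read 9.16 and 8.96 with vehicle and 10.05 and 10.29 at 5 h, a difference of 1.11 ± 0.16 with an adjusted p of 0.00131 in the 4-array fit. Irf4 stood at 0.33 and Irf8 at -0.08, and neither was called.

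Among the brakes on cytokine signalling, 2 of 18 members tested rose, against 0.57% of all genes, and the median was 0.05. The risen members were Usp18 and Socs3. Usp18, which removes ISG15 from proteins and blocks the receptor at IFNAR2, read 7.47 and 7.04 with vehicle and 8.67 and 8.79 at 5 h. It rose by 1.47, or 2.78-fold, with an adjusted p of 9.28e-04 in the 4-array fit and 0.401 in the 6-array fit. Of the ISG15 conjugation genes, Herc6, the ligase of the mouse system, also rose, by 0.52, while Uba7, the activating enzyme, stood at 0.27 with an adjusted p of 0.366 in the 4-array fit. Socs3, an inhibitor of receptors that signal through gp130, read 9.37 and 9.63 with vehicle and 10.52 and 10.33 at 5 h, and rose by 0.92. It was 10.45 in 2 h array 1 and 9.68 in 2 h array 2, so the 2 h pair spanned the space between the groups.

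Among genes that STAT proteins induce after cytokines, mostly outside the antiviral set, 3 of 24 tested rose, against 0.57% of all genes. The risen members were Bcl3, Socs3 and Pim2, and the list median was 0.09. Bcl3, an atypical IκB protein that alters NF-κB activity in T cells, read 9.45 and 9.59 with vehicle and 10.85 and 10.68 at 5 h. It rose by 1.25 ± 0.14, with an adjusted p of 4.06e-04 in the 4-array fit and 0.0575 in the 6-array fit. Pim2, a kinase that favours survival, read 9.85 and 9.84 with vehicle and 10.36 and 10.32 at 5 h, while its 2 h arrays were 9.79 and 10.03. Its rise was 0.49. Its relative Pim1 stood at 0.48 but was not called, with an adjusted p of 0.144 in the 4-array fit.

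Several genes that rose belong to none of the lists. Slc15a2, a carrier of small peptides, read 6.41 and 6.94 with vehicle and 9.19 and 8.86 at 5 h. The groups lay far apart, and the difference of 2.35 ± 0.32, or 5.08-fold, had an adjusted p of 4.06e-04 in the 4-array fit and 0.153 in the 6-array fit. Skap2, an adaptor of integrin signalling, read 7.56 and 7.67 with vehicle and 8.81 and 8.51 at 5 h, and rose by 1.05. Smaller rises were seen in Rnf213 (0.84), Mid1 (0.75), B430306N03Rik (0.75), Vwa5a (0.65), Sbno2 (0.63), Cst7 (0.58), Cdkn2d (0.47) and Hdac6 (0.42), among others. Rnf213 was also called higher in macrophages at 5 h, by 2.01. Cst7 encodes cystatin F, an inhibitor of lysosomal proteases, Cdkn2d a cell-cycle inhibitor and Hdac6 a deacetylase of tubulin. The 6 genes that fell, none of which was called with no filter, were A530021J07Rik (-0.60), Tdrp (-0.55), Plp2 (-0.48), Slc28a2b (-0.48), Trat1 (-0.44) and Ptov1 (-0.43). Trat1, an adaptor of the T-cell receptor complex and 1 of the 9 CD4 T-cell markers, read 9.70 and 9.67 with vehicle and 9.23 and 9.25 at 5 h, with no overlap. The mean of those 9 markers was 11.60 and 11.63 with vehicle and 11.43 and 11.47 at 5 h, and its part in the fall of Trat1 was not tested.

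The remaining lists held few or no called genes. Of 22 MHC class I genes tested, 1 rose, H2-T24, a non-classical molecule, from 9.47 and 9.42 to 10.37 and 10.42. Tapbp, which loads peptides, stood at 0.25, and Psmb8, an immunoproteasome subunit, at 0.31, with adjusted p values of 0.292 and 0.286 in the 4-array fit. Of 17 genes of apoptosis and necroptosis 1 rose, the antiviral Xaf1 (1.02), while Daxx stood at 0.23 and Tnfsf10, which encodes TRAIL, at 0.29. No gene was called among 31 of T-cell homing and early activation (median -0.08), 22 of T-cell receptor signalling (-0.07), 15 T-helper regulators and cytokines (0.02) or 8 chemokines and cytokines (0.04). The same held for 24 genes of the cell cycle (median 0.01), 12 of the circadian clock (0.01), 20 immediate early genes (0.03), 14 of glucocorticoid and metallothionein stress (0.09) and 10 heat shock proteins (-0.11). Klf3, a repressor of lymphocyte homing genes, stood at -0.35, and Cd28, the main costimulatory receptor, at -0.32, with adjusted p values of 0.269 and 0.148 in the 4-array fit. All 8 inhibitory receptors and ligands tested were above 0, against 51.5% of all genes, with a median of 0.19, though none was called. The largest of these differences was that of Ctla4, at 0.49 with an adjusted p of 0.119 in the 4-array fit, and Pdcd1 stood at 0.34. Il18r1, a chain of the interleukin 18 receptor, stood at 0.51 with an adjusted p of 0.135. Of the stress genes, Ddit4, an inhibitor of mTOR, stood at 0.65, with 9.27 and 9.64 against 9.88 and 10.33. Among the heat shock genes the vehicle arrays differed from each other in Hsph1, at 9.59 and 8.45.

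**Figure D3:**
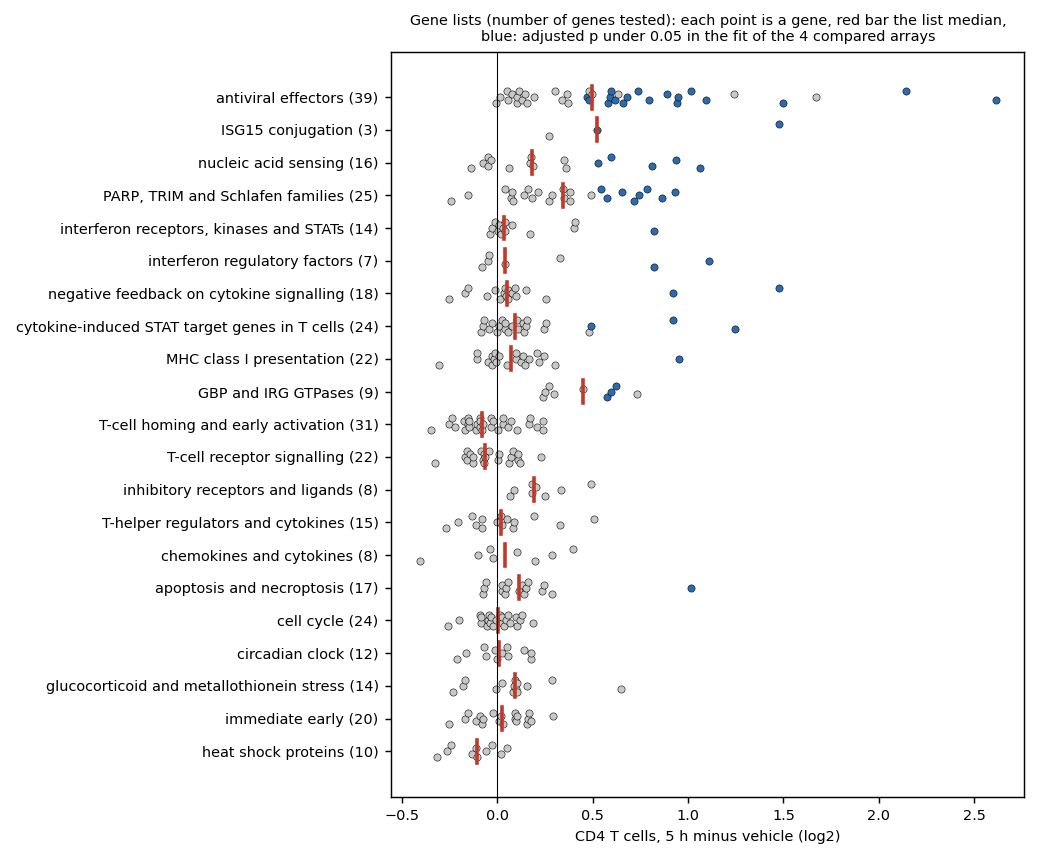
Each point is 1 gene of a list, placed by its log2 difference at 5 h (5 h minus vehicle, 6-array fit); red bars are list medians, blue points passed an adjusted p under 0.05 in the 4-array fit, and numbers in brackets count the genes tested. Antiviral effectors had a median of 0.50 and T-cell receptor signalling one of -0.07.

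Set beside the 2 h arrays, the 57 risen genes fell into 3 sets. In 32 genes, 56.1% of the 57, both 5 h arrays lay below both 2 h arrays, against 15.6% of all genes tested. They included Ifit1, Rtp4, Usp18, Xaf1, Irf7, Irf9, Eif2ak2, Ifih1, Slfn5 and H2-T24. Their median difference was 1.66 at 2 h and 0.77 at 5 h, so that by the median gene 48.2% of the log2 difference was kept. Usp18, for example, read 11.12 and 10.24 at 2 h and 8.67 and 8.79 at 5 h. In 14 genes, 24.6% of the 57, both 5 h arrays lay above both 2 h arrays, a share near the 24% of all genes. These were Neb, Bcl3, Skap2, Mid1, Vwa5a, Sbno2, Ifi27, Cst7, Map3k5, Ndrg3, Pim2, Rnase6, Cdkn2d and Hdac6, with a median of 0.20 at 2 h and 0.60 at 5 h. The other 11 overlapped between the 2 times and included Slc15a2, Ifi27l2a, Socs3, Adar and Ddx60. Both comparisons share the vehicle arrays, and the sets are descriptions, since only Neb was called between the 2 times. The macrophage markers of the 2 h arrays, with means of 8.42 and 7.49, were above those at 5 h (7.00 and 7.01), and their part in these sets was not tested. By the way the set of 32 was chosen, 2 h array 2, with the lower of the 2 marker means, also stood above both 5 h arrays in each of them.

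The same genes were looked up in the macrophage arrays. Because the 2 h arrays that divided the sets carried raised macrophage markers, the sets were not chosen independently of macrophage levels, and the counts are descriptions. Of the 32 genes, 31 were called higher in macrophages at 5 h, with a median difference of 2.05 there. Over all genes of the 12-array B10.Q fit, 146 (1.31%) were called higher. Of the 14 genes none was, which is near the share of all genes, with a median of 0.05, and the nearest was Mid1 (1.19, adjusted p = 0.0529). Bcl3, for instance, differed by 1.25 in T cells and 0.42 in macrophages, and Skap2 by 1.05 and 0.03. For Bcl3 the difference between the responses was 0.83 ± 0.24 with an adjusted p of 0.414, and for Skap2 it was 1.02 ± 0.19 with an adjusted p of 0.068, so neither was called. In a fit of the 4 compared groups alone Skap2 was called, with an adjusted p of 0.00398, and Bcl3 was not, with 0.157.

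Viewed from the macrophages, most genes called higher there at 5 h were also above 0 in T cells. These genes were chosen by their macrophage values, which favours large differences there. Their smaller size in T cells is therefore a description and no test. Of the 146 genes, 112 were tested in T cells and 99 of these (88.4%) were above 0, against 51.5% of all genes. Their median difference was 0.33 in T cells and 1.28 in macrophages. In 84 of the 112 both treated T-cell arrays lay above both vehicle arrays, against 21.7% of all genes. Of the 108 that were tested in the 4-array fit 38 rose, against 0.57% of all genes. In 4 of the 112 the difference was larger in T cells than in macrophages.

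The difference of responses, T cells minus macrophages, was called in 28 of 11187 genes (0.25%), 1 larger and 27 smaller in T cells. The 1 larger was Neb, which differed by -0.08 in macrophages, giving 1.60 ± 0.14 with an adjusted p of 7.12e-04. It was the 1 gene with a larger response in T cells under both normalizations tried. The 27 others were all called higher in macrophages at 5 h, with differences there of 0.87 to 4.93 and a median of 1.92. In T cells their median was 0.12, and 7 of them rose, against 0.57% of all genes. The choice of these genes favours small differences in T cells, so this median is a description and no test. Of the 27, 21 were high enough to be tested in the 6-array fit. In 4 of the 27 both T-cell vehicle arrays lay below the lower quartile, where a change may not be seen. In 14 of the 27 both treated T-cell arrays lay above both vehicle arrays, against 21.7% of all genes tested. The size of this set depends on the scaling and the arrays used, with 9 genes called after quantile normalization (1 larger, 8 smaller), 7 after subtraction of array medians (1 and 6), 6 to 11 without any 1 of the compared arrays and 54 without 2 h T-cell array 1 (5 and 49). A fit of the 4 compared groups alone called 139 (13 larger, 126 smaller), so Neb was not the 1 larger gene there.

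Of the 10 genes with the largest fitted differences, 3 were too low in T cells for a size to be given. Mx1, a GTPase that blocks influenza viruses, read 5.96 and 5.84 with vehicle and 5.98 and 6.20 at 5 h in T cells, below the lower quartile in all 4 arrays, and 10.47 and 10.80 in treated macrophages. Its rise in macrophages, from 6.15 and 6.12, was at least 20.2-fold. Mx2, a related GTPase, and Ifi205, a member of the PYHIN family of DNA-binding proteins, also lay below the lower quartile in these 4 T-cell arrays and in both macrophage vehicle arrays. Their rises in macrophages were at least 7.72-fold and at least 8.50-fold. The difference of responses was called for these 3 genes, with adjusted p values of 7.12e-04, 0.0266 and 0.0405, but a change in T cells under the lower quartile would not have been seen. Rtp4 rose in both cell types, by 2.14 in T cells and 4.93 in macrophages, and differed by -2.79 ± 0.27. Oasl2, an OAS-like protein, and the GTPase gene Gm12250 also rose in both, with differences of responses of -3.18 ± 0.47 and -2.39 ± 0.42.

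The other 4 of the 10 did not pass the test in T cells or were too low to enter it. Slfn1, of the Schlafen family of growth regulators, read 11.48 and 11.38 with vehicle and 11.57 and 11.57 at 5 h, against 13.03 and 12.16 at 2 h. Its difference at 5 h was 0.14 in T cells and 2.41 in macrophages. Ifi209, a PYHIN protein, read 11.38 and 11.35 with vehicle and 11.33 and 11.26 at 5 h, and differed by -0.07 in T cells and 2.27 in macrophages. Ms4a6c, a membrane protein of the MS4A family, differed by -0.19 and 2.16. Pde7b, a phosphodiesterase, read 6.15 and 6.39 with vehicle and 6.27 and 6.05 at 5 h and was not tested in T cells alone, while macrophages differed by 2.36. Only its value in vehicle array 2 lay above the lower quartile, so a T-cell change may not have been seen. Over the 27 genes the T-cell median was 0.64 at 2 h and 0.12 at 5 h. Both 2 h arrays lay above both vehicle arrays in 19, against 14.5% of all genes tested in T cells. The 5 h values entered the choice of the 27, which favours small T-cell differences at 5 h. The macrophage marker means of the 2 h arrays (8.42 and 7.49) lay above those with vehicle (6.83 to 7.04), and all 27 genes were called higher in macrophages. The part of macrophage RNA in these 2 h values was not tested.

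**Figure D4:**
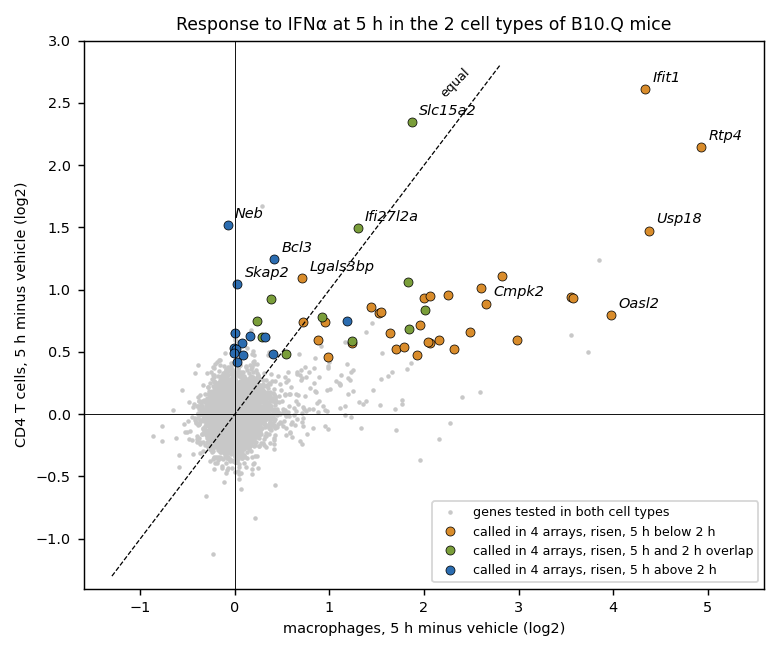
Log2 difference at 5 h in CD4 T cells (vertical axis, 6-array fit) against that in macrophages (horizontal axis, 12-array fit) for genes tested in both; coloured points are the 57 genes that rose in the 4-array fit, by their place relative to the 2 h arrays, and the dashed line marks equal differences. Rtp4 lies at 2.14 against 4.93, and Neb at 1.52 against -0.08.

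The promoters of the risen genes were read from the RefSeq table of GRCm38.p6, which gives 300 bases per promoter, 250 before to 50 after the start. It holds a promoter for 44 of the 57, and Rtp4, Neb, Ifi27l2a and Usp18 are not among them. An ISRE core, searched as GAAA, any 2 bases and GAAA on both strands, was present in 18 of the 44 (40.9%), against 3.67% of the 8176 tested genes with a promoter and 3.44% of all 32851 promoters. Of the genes lower at 5 h than at 2 h it was present in 13 of 23 (56.5%), of those that overlapped in 4 of 10 and of those higher at 5 h in 1 of 11 (9.09%). A GAS (TTCNNNGAA, which reads the same on both strands) was present in 7 of the 44 (15.9%), against 8.28% of the tested genes and 8.30% of all promoters. It was present in 4 of 23 genes lower at 5 h than at 2 h, in 2 of 10 that overlapped and in 1 of 11 higher at 5 h. Of the 6 genes that fell, 3 have a promoter in the table. An ISRE core was present in 1 of these 3, and a GAS in none. A gene with several promoters was counted as holding a motif when any of them did. A match is a sequence, not a site of binding, and its absence holds for this window alone.

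Promoters of 5 genes are shown, 3 of the set that was lower at 5 h than at 2 h and with an ISRE core, Socs3 as a gene with a GAS and no ISRE core, and Bcl3 as a gene of the set higher at 5 h with neither. They are written 5′ to 3′ in the direction of the gene, with matches to either motif in capitals.
Ifit1 (chr19:34640639-34640938, plus strand): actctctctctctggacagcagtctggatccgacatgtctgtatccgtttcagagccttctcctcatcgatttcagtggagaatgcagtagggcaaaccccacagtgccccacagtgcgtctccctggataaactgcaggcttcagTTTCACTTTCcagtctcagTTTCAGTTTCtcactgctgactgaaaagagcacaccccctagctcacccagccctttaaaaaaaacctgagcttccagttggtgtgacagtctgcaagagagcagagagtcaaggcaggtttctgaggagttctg
Eif2ak2 (chr17:78882523-78882822, minus strand): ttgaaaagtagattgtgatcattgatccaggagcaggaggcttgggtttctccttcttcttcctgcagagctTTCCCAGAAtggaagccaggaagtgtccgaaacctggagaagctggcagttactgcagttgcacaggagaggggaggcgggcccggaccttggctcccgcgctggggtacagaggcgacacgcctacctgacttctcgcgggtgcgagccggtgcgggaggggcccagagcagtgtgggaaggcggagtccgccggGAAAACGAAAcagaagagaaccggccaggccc
Slfn5 (chr11:82951852-82952151, plus strand): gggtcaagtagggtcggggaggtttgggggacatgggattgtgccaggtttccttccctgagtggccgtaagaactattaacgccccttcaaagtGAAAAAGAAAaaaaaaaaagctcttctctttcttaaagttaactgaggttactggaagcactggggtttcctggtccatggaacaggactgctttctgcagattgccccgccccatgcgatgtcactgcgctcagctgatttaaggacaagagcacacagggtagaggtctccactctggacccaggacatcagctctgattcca
Socs3 (chr11:117969317-117969616, minus strand): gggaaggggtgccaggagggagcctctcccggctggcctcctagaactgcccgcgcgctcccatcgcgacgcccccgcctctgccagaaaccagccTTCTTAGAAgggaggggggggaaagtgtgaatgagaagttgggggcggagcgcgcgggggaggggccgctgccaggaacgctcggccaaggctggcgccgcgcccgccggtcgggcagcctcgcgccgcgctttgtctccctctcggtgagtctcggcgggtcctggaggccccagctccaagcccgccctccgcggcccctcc
Bcl3 (chr7:19822706-19823005, minus strand): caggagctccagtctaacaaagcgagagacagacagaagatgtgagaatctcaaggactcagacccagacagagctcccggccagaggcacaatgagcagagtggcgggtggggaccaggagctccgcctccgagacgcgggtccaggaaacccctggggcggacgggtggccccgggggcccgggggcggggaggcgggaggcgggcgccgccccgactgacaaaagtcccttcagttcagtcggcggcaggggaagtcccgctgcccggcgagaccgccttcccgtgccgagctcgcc
Ifit1 holds 2 ISRE cores on the minus strand of the gene, TTTCACTTTC and TTTCAGTTTC, which begin 104 and 85 bases before the start. Eif2ak2 holds GAAAACGAAA from base 19 after the start and a GAS, TTCCCAGAA, that begins 178 bases before it, with no overlap between the motifs. Slfn5 holds GAAAAAGAAA, which begins 155 bases before the start, and Socs3 holds TTCTTAGAA, which begins 154 bases before it. At 5 h these genes differed from vehicle by 2.61 (Ifit1), 0.95 (Eif2ak2), 0.93 (Slfn5), 0.92 (Socs3) and 1.25 (Bcl3).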

How the data were processed

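RNA of FACS-sorted cells was amplified with the Ambion WT Expression Kit and hybridised to Affymetrix Mouse Gene 1.0 ST arrays, per the labels. The deposited values are probe set intensities on a linear scale, made by the authors with RMA in Affymetrix Power Tools per the submitters' processing notes, with no version stated. Their log2 was taken, with no further scaling. Of 24922 probe sets, 21425 carry 1 gene symbol, 1399 several and 2098 none, and 21347 matched RefSeq (GRCm38.p6) by Entrez identifier. The probe set with the highest mean stood for each of 19752 genes.

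With limma 3.58.1 (lmFit, eBayes; R 4.3.3), a model was fitted to the 6 B10.Q T-cell arrays in 3 groups, and another to the 12 B10.Q arrays for the difference between cell types. Genes entered a fit when 2 or more of its arrays exceeded the array's median, and were called at a two-sided Benjamini-Hochberg adjusted p under 0.05. With 2 against 2 arrays an exact permutation test cannot go below 0.333. The procedure was also run on simulated data in which all arrays of a gene had the same spread. Those data therefore did not imitate the wider spread of the 2 h T-cell pair. Where both vehicle arrays lay below their lower quartile, a fold was computed against the higher of the quartile and the probe set's value and written "at least".

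Named genes were the called genes whose groups did not overlap (up to 20 each way), those called between 5 h and 2 h or in the difference of responses (up to 10 each way), up to 4 members with the largest difference in each of 29 lists, pathway genes such as Ifnar1, Ifnar2, Tyk2, Stat2 and Irf9, and the markers, except an item that is not reported here; genes named from the fit of the 4 compared arrays lie outside this rule. The comparison, its lists and the alternatives were chosen with earlier results of these data known. No promoter was found in the table for some called genes.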

Additional observations from a re-analysis of the deposited data

Results flagged for a closer look

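The response at 5 h differed between cell types by a direct test (T cells minus macrophages, log2, adjusted p under 0.05 in limma over the 12 B10.Q arrays). Neb was larger in T cells, by 1.60. The response was smaller in T cells in Oasl2 (-3.18), Rtp4 (-2.79), Pde7b (-2.46), Gm12250 (-2.39), Ms4a6c (-2.36), Ifi209 (-2.35) and Slfn1 (-2.27). Of the compared T-cell arrays, only vehicle array 2 had Pde7b above the lower quartile, so a change there may not have been seen. Mx1, Ifi205 and Mx2 were called too, with fitted values of -4.31, -3.47 and -2.92, but these are not measured sizes and have no rank, since all 4 T-cell arrays and both macrophage vehicle arrays lay below the lower quartile. Between the 2 times in T cells, Neb was higher at 5 h than at 2 h by 1.43, a call that was lost in a fit of those 2 groups alone. With 2 arrays in a group, none could be tested as extreme.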

How the results depend on the processing

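For 5 h against vehicle (2 genes called) the count was 3 with no filter, 2 with a filter at the 70th percentile, after quantile normalization, after subtraction of array medians, with a trend and robust variance model and with every probe set, 6 with all 16 arrays and 63 with the 4 compared arrays alone. Without 1 of the compared arrays it was 0 in each case, with 141 to 276 genes at an unadjusted p under 0.05. Alternatives chosen after seeing the data gave 64 to 65 without either 2 h array, 37 in the 4-array fit with no filter (all higher), and 42, 44, 76 and 79 in the 4-array fit without 1 of its arrays. For 5 h against 2 h (1 called, higher) the count was 3 with no filter (1 higher, 2 lower), 0 with the compared groups alone, 7 with all 16 arrays (1 and 6) and 0 to 1633 without 1 array, with 7 and 20 without 2 h array 1 and 1131 and 502 without 2 h array 2, so the balance of calls turned between settings. For the difference of responses (28 called) it was 9 after quantile normalization, 7 after subtraction of medians (1 larger, 6 smaller), 17 with trend and robust variance, 139 with the compared groups alone (13 and 126), 14 with all 16 arrays and 6 to 11 without 1 compared array. Without 2 h T-cell array 1, a choice made after seeing the data, it was 54. The cause was not tested. No gene named here was called with opposite signs under 2 settings.

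With the replicate number as a block, the counts were 3, 1 and 31. Same-numbered arrays of vehicle and 5 h deviated together at a correlation of 0.15, of vehicle and 2 h at -0.06 and of 2 h and 5 h at 0.18. With 2 arrays per group, these correlations cannot tell whether same-numbered arrays share more than a number. Groups hold 2 arrays each, detection calls were not used here, and low probe sets were judged by the lower quartile of the array alone.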
